A study of Mus musculus with 96 samples.

Results

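GFP_Barcode_29850, GFP_Barcode_100907 and GFP_Barcode_20873 are 3 DNA barcodes of LSK-derived leukaemia clones. They were selected on measured values, as the LSK-library barcodes whose share of reads passed a test for being higher in NSG than in Ptprca recipients of LSK cells alone. They are 3 of 1331 LSK-library (GFP) barcodes and of 4675 barcodes in all. The files give barcode names without their bases, so each clone is identified by name. A clone here means the cells that carry 1 barcode, and whether some cells carried several barcodes is not given in the sources used here.

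SPLINTR barcodes are short DNA tags that a virus inserts into the genome, so that a founder cell passes its tag to all of its descendants. The share of barcode reads that a tag holds after transplantation is read as the relative size of that clone. MLL-AF9 is a fusion of a histone methyltransferase gene with a transcription elongation gene that drives acute leukaemia and can transform both stem and committed myeloid cells. LSK cells (lineage-negative, Sca-1+, c-Kit+) are an immature marrow fraction in which the haematopoietic stem cells are found. Granulocyte-monocyte progenitors (GMP) are committed to the myeloid path. NSG mice are a strain on the NOD background without mature B, T or NK cells, while Ptprca mice have an intact immune system and carry an allele of the leukocyte common antigen that tells host from donor blood cells.

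All groups used progenitors sorted from the marrow of female C57BL/6 mice aged 6 to 8 weeks, transduced with an MLL-AF9 retrovirus, grown with IL-3, IL-6 and SCF, and barcoded in culture. The GFP barcode library marked cells of LSK origin and the mCherry library marked cells of GMP origin. The clones were followed in 3 Ptprca and 4 NSG recipients of LSK cells alone, and in 4 Ptprca and 4 NSG recipients of LSK and GMP cells mixed. Bone marrow and spleen were sequenced from each of these 15 mice except NSG mouse 24, which had a spleen library only. Recipient age, cell dose and time of harvest are not given in the sources used here. Every mouse of a kind received cells of the same barcoded culture, so the mice are separate hosts of 1 set of clones and the p-values measure the spread between hosts only.

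The 29 libraries from these mice and the pools that contained LSK cells held 1863456 to 8497406 LSK-library reads each. Percentages are of LSK-library reads unless stated otherwise, and a mouse's value is the mean of its tissues. The shares of 1 library add up to a fixed total, so a gain in some clones lowers the others, and more cells of a clone cannot be told apart from fewer cells of the rest. Each host was deposited as a table of its own, so host, strain background and any difference in preparation cannot be told apart. Reads of GMP barcodes made up 0.00982% to 0.128% of the LSK and GMP reads in recipients of LSK cells alone, highest in the spleen of NSG mouse 10 and next, at 0.103%, in the marrow of NSG mouse 12. The spleen of Ptprca mouse 18 had 1.06% of its reads in barcodes of no pool. LSK-library reads in barcodes of no pool were at most 0.0132% of any library. Results with and without those 3 libraries are compared at the end.

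In the pools sampled before transplantation, GFP_Barcode_29850 and GFP_Barcode_100907 were mid-sized clones and GFP_Barcode_20873 was a small one. GFP_Barcode_29850 held 0.563% of the LSK pool (33031 of 5871483 reads, 95% Wilson interval 0.557% to 0.569%) and ranked 44 of the 1209 LSK barcodes above 0. GFP_Barcode_100907 held 0.533% (0.527% to 0.539%) and ranked 48. GFP_Barcode_20873 held 0.0181% (1062 reads, 0.0170% to 0.0192%) and ranked 558. The mixed pool was 50.6% LSK by reads, and the clones stood at much the same levels within its LSK-library reads. GFP_Barcode_29850 held 0.577% there (0.567% to 0.588%), GFP_Barcode_100907 held 0.528% (0.518% to 0.538%) and GFP_Barcode_20873 held 0.0192% (413 reads, 0.0174% to 0.0211%). For each clone the intervals of the 2 pools overlapped, which is not a test of a difference between the pools. The intervals cover counting error only, because amplified reads carried no molecular identifier and cannot be counted as separate molecules. Had the PCR duplicates been averaged rather than summed, a recovered read would be a fraction of a read, and the read counts and interval widths would change.

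In recipients of LSK cells alone, GFP_Barcode_29850 was the leading clone of 3 of 4 NSG mice. It held 25.5%, 27.8%, 31.1% and 18.7% in NSG mice 9, 10, 11 and 12. In Ptprca mice 1, 2 and 3 it held 5.78%, 7.41% and 10.5%. The mean was 25.7% ± 5.23 (SD, n = 4) in NSG and 7.90% ± 2.40 (SD, n = 3) in Ptprca mice, and no mouse of one host lay within the range of the other. Its rank within the mouse was 1, 1, 1 and 4 in the NSG mice and 4 in every Ptprca mouse.

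GFP_Barcode_100907 was the more even of the large clones. It held 21.4%, 17.8%, 18.7% and 20.8% in NSG mice 9 to 12, and 9.18%, 11.7% and 11.1% in Ptprca mice 1 to 3. The means were 19.7% ± 1.70 (SD, n = 4) and 10.7% ± 1.31 (SD, n = 3), again without overlap. It ranked 2 to 4 in the NSG mice and 2 or 3 in the Ptprca mice, so that its share differed by host while its place in the order hardly did.

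GFP_Barcode_20873 stayed small in both hosts, although its fold over the pool was the highest of the 3 clones in each. GFP_Barcode_20873 held 1.41%, 1.03%, 2.18% and 1.44% in NSG mice 9 to 12, and 0.970%, 0.244% and 0.218% in Ptprca mice 1 to 3. The means were 1.52% ± 0.479 (SD, n = 4) and 0.477% ± 0.427 (SD, n = 3). The gap between the hosts was narrow, since Ptprca mouse 1 at 0.970% lay just under NSG mouse 10 at 1.03%, and in spleen alone the hosts overlapped. The clone ranked 6 to 8 in the NSG mice and 13, 29 and 34 in the Ptprca mice.

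These values chose the clones and are given as a description. In the limma contrast on which the choice rested, 3 of 103 LSK clones (2.91%) were called higher in NSG recipients and 52 (50.5%) higher in Ptprca recipients, at an adjusted p under 0.05. The NSG minus Ptprca differences were 1.72, 0.89 and 1.97 on the log2(CPM + 10) scale for GFP_Barcode_29850, GFP_Barcode_100907 and GFP_Barcode_20873, while the median clone tested stood at -3.26. GFP_Barcode_20873 was the clone just inside the threshold, with an adjusted p of 0.0317 from limma. Just outside were GFP_Barcode_6591, with a log2 difference of 2.94, means of 0.210% against 0.0264% and an adjusted p of 0.0626 from limma, and GFP_Barcode_4247, with 2.72, means of 0.0504% against 0.00626% and an adjusted p of 0.0694 from limma. Both clones outside differed by more on the log2 scale than any of the 3 members. Other clones without a call also had higher means in NSG recipients. The large clone GFP_Barcode_7785 held 19.98% ± 6.68 (SD, n = 4) in NSG and 11.9% ± 2.11 (SD, n = 3) in Ptprca recipients, with NSG mouse 9 at 10.8% inside the Ptprca range (log2 difference 0.68, adjusted p = 0.0809 by limma).

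The mixed recipients are mice that the choice of clones did not use, and they show whether the host difference recurred in the presence of GMP-derived leukaemia. GFP_Barcode_29850 was again larger in NSG hosts. It held 17.7%, 18.99%, 38.4% and 19.9% of LSK-library reads in NSG mice 21, 22, 23 and 24. In Ptprca mice 17, 18, 19 and 20 it held 4.59%, 4.06%, 6.91% and 10.3%. Every NSG mouse lay above every Ptprca mouse, with NSG mouse 23 far above the other NSG mice. The share of all clones without overlap between hosts was not computed, so absence of overlap is a description here and below. The means were 23.7% ± 9.80 (SD, n = 4) and 6.48% ± 2.86 (SD, n = 4). The difference was 1.90 ± 0.38 (SE) on the log2(CPM + 10) scale, a 3.72-fold change, with an adjusted p of 0.00101 (limma over 112 LSK clones, two-sided). Without the trend in limma's variance estimate the same difference missed the threshold, with an adjusted p of 0.0654. In bone marrow the hosts did not overlap, but in spleen NSG mouse 21 at 8.22% lay under Ptprca mouse 19 at 8.57%.

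GFP_Barcode_100907 was higher in the mixed NSG recipients by a smaller margin that depended on the settings. It held 14.7%, 19.05%, 14.2% and 7.01% in NSG mice 21 to 24, and 5.65%, 5.56%, 8.30% and 7.88% in Ptprca mice 17 to 20. NSG mouse 24, the mouse with spleen only, lay within the Ptprca range, and the other 3 NSG mice lay above it. The means were 13.8% ± 4.99 (SD, n = 4) and 6.85% ± 1.44 (SD, n = 4). The log2 difference was 0.94 ± 0.38 (SE), 1.92-fold, with an adjusted p of 0.0460 by limma, close to the threshold. It passed when mouse 24 was left out (log2 difference 1.24, adjusted p = 0.0120 by limma) and missed when any other mouse was left out, with adjusted p-values of 0.0519 to 0.133.

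GFP_Barcode_20873 did not pass the test in the mixed recipients. It held 1.75%, 0.240%, 1.61% and 0.156% in NSG mice 21 to 24, and 0.383%, 0.633%, 0.329% and 0.0779% in Ptprca mice 17 to 20. NSG mice 21 and 23 lay above all Ptprca mice, and NSG mice 22 and 24 lay within their range. The means were 0.938% ± 0.857 (SD, n = 4) and 0.356% ± 0.228 (SD, n = 4). The log2 difference was 1.02 ± 1.19 (SE), with an adjusted p of 0.4655 by limma, so its error was larger than the difference. Its rank was 6, 16, 7 and 15 in NSG mice 21 to 24 and 16 to 43 in the Ptprca mice.

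Among the 112 LSK clones tested in the mixed recipients, 3 (2.68%) were called higher in NSG and 57 (50.9%) higher in Ptprca hosts, and 64 had an unadjusted p under 0.05. GFP_Barcode_29850 and GFP_Barcode_100907 were 2 of the 3 called higher in NSG. The other was GFP_Barcode_7785, another large LSK clone, with a log2 difference of 1.40 and an adjusted p of 0.000816 by limma. The median clone stood at -3.13, and the calls changed with the way the mice were scaled. After centring on the median clone of the mouse, 19 clones were called higher in NSG and 0 higher in Ptprca (34 at an unadjusted p under 0.05). With edgeR the calls were 3 and 52 without TMM and 7 and 31 with TMM scaling. The direction of most calls thus turned with centring and not with edgeR. With edgeR without TMM, GFP_Barcode_29850 was called higher in NSG (edgeR adjusted p = 0.00508) and GFP_Barcode_100907 was not (0.0570). Both clones were called higher in NSG after centring and with TMM, but at much larger values. The log2 differences were 7.34 and 6.39 after centring and 5.21 and 4.03 with TMM, against 1.90 and 0.94 as fitted, so their size is relative to the scaling. Centring moved the difference of every clone by the same amount, so it gave no separate support for these clones.

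The same contrast was run in the same mice with shares of LSK plus GMP reads, which count the GMP-derived cells in the total. It is another measure of those mice and not a separate test in new ones. Here 4 of 128 clones (3.12%) were called higher in NSG. They were GFP_Barcode_29850, GFP_Barcode_100907, GFP_Barcode_7785 and the GMP clone mCHERRY_2_Barcode_457303. GFP_Barcode_29850 was 5.36-fold higher (log2 difference 2.42 ± 0.41 SE, adjusted p = 0.000530 by limma). GFP_Barcode_100907 was 2.76-fold higher (1.47 ± 0.37 SE, adjusted p = 0.00608 by limma), a call that held with any single mouse left out (adjusted p-values of 0.00124 to 0.0261) but not without the trend (0.0833) or in spleen alone (0.0603). GFP_Barcode_20873 differed by 1.46 ± 1.29 (SE), with an adjusted p of 0.364 by limma. The median clone stood at -2.88. The calls were 4 higher in NSG and 63 (49.2%) higher in Ptprca hosts as fitted, 32 and 3 after centring on the median clone, 9 and 39 with edgeR without TMM, and 18 and 28 with TMM. GFP_Barcode_29850 stood at 6.69 and GFP_Barcode_100907 at 5.73 after centring, and at 4.45 and 3.39 with TMM.

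The LSK share of LSK plus GMP reads in the mixed recipients was 40.2% ± 2.26 (SD, n = 4) in Ptprca and 58.6% ± 9.58 (SD, n = 4) in NSG hosts, a difference of 18.4 points, from a pool at 50.6%. The part of each clone in that share follows, in points of LSK plus GMP reads. GFP_Barcode_29850 made up 8.35, 10.4, 28.6 and 10.9 points in NSG mice 21 to 24, and 1.93, 1.66, 2.56 and 4.002 points in Ptprca mice 17 to 20. The hosts did not overlap, and NSG mouse 23 held far more than any other mouse. Its mean was 14.6 ± 9.41 against 2.54 ± 1.05 (SD, n = 4 each), from 0.292 in the pool. The difference of 12.03 points was as large as 65.6% of the difference in LSK share.

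GFP_Barcode_100907 made up 7.88, 10.7, 10.8 and 3.85 points in NSG mice 21 to 24, and 2.36, 2.30, 3.05 and 3.62 points in Ptprca mice 17 to 20. On this scale its hosts did not overlap, although NSG mouse 24 at 3.85 lay close to Ptprca mouse 20 at 3.62. The means were 8.30 ± 3.25 and 2.83 ± 0.626 (SD, n = 4 each), from 0.267 in the pool, a difference of 5.46 points or 29.8%. GFP_Barcode_20873 made up 0.552 ± 0.534 points in NSG and 0.147 ± 0.0948 in Ptprca hosts (SD, n = 4 each), from 0.00970 in the pool. Its difference of 0.405 points was 2.21% of the difference in LSK share, and its hosts overlapped.

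The 3 clones together made up 23.4 ± 11.7 points in NSG and 5.52 ± 1.57 in Ptprca hosts (SD, n = 4 each), a difference of 17.9 points or 97.5% of the difference in LSK share. All other LSK clones together made up 35.1 ± 3.45 and 34.7 ± 2.89 points, a difference of 0.454. That near balance contained differences in both directions. GFP_Barcode_7785 was 11.4 points higher in NSG hosts, and the NSG minus Ptprca value of GFP_Barcode_1859, another large LSK clone, was -7.41 points. The percentages are therefore parts of a signed sum and not exclusive portions. Ranked by the difference in points, GFP_Barcode_29850 came at rank 1, GFP_Barcode_7785 at rank 2 and GFP_Barcode_100907 at rank 3 among LSK clones.

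NSG mouse 23 weighed heavily on these sums. Without it the difference in LSK share was 13.7 points, that of GFP_Barcode_29850 was 7.36 (53.8%), that of GFP_Barcode_100907 was 4.64 (34.0%) and that of GFP_Barcode_20873 was 0.198. The sum of the 3 clones was then 12.2 points, or 89.2%. With the reads of the 3 clones removed from every library, the LSK share of the rest was 46.4% ± 5.52 in NSG and 36.7% ± 2.71 in Ptprca hosts (SD, n = 4 each), still 9.66 points apart, against 50.3% in the pool. That remainder includes GFP_Barcode_7785.

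Set against the pool that each mouse received, all 3 clones stood above their pool share in every one of the 15 mice. Fold over the pool is the mean share in the mice divided by the share in the pool, ranked among LSK clones of at least 100 CPM in the pool, of which there were 679 in the LSK pool and 686 in the mixed pool. GFP_Barcode_20873 had the highest fold of all in NSG recipients of LSK cells, 83.8, and 26.4 in Ptprca recipients (rank 5). GFP_Barcode_29850 followed with 45.8 in NSG (rank 2) and 14.035 in Ptprca recipients (rank 9). GFP_Barcode_100907 stood at 36.9 (rank 5) and 19.98 (rank 7). The shares in recipients of LSK cells alone chose the clones, so these folds and ranks are a description only. By the mean share of a group, few clones stood above their pool share. They were 22 of 679 in NSG and 36 of 679 in Ptprca recipients of LSK cells. In mixed recipients they were 21 of 686 in NSG and 44 of 686 in Ptprca hosts. How many clones stood above the pool in every mouse was not counted.

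In the mixed recipients the folds were lower for each clone in each host, and the 3 clones stayed among the first 10. GFP_Barcode_20873 stood at 49.0 in NSG (rank 3) and 18.6 in Ptprca hosts (rank 6). GFP_Barcode_29850 stood at 41.1 (rank 4) and 11.2 (rank 10), and GFP_Barcode_100907 at 26.1 (rank 7) and 12.97 (rank 9). The folds of single mice ranged from 7.04 to 66.5 for GFP_Barcode_29850, from 10.5 to 40.2 for GFP_Barcode_100907 and from 4.06 to 120.4 for GFP_Barcode_20873, the widest spread of the 3.

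The presence of GMP-derived cells was compared as mixed recipients minus recipients of LSK cells alone, within the LSK library and averaged over both hosts. None of the 3 clones passed. GFP_Barcode_29850 differed by -0.26 ± 0.24 (SE) on the log2 scale, with an adjusted p of 0.683 by limma. GFP_Barcode_100907 differed by -0.63 ± 0.21 (SE), with an unadjusted p of 0.00784 and an adjusted p of 0.1001 by limma. GFP_Barcode_20873 differed by -0.88 ± 0.69 (SE), with an adjusted p of 0.615 by limma. The median of 115 clones was -0.44, and 7 clones (6.09%) were called, all higher with LSK cells alone. By host, the mean of GFP_Barcode_100907 went from 19.7% alone to 13.8% mixed in NSG, and from 10.7% to 6.85% in Ptprca mice. Shares from recipients of LSK cells alone also chose the clones, and the test above used them again. The values by host are therefore a description only. Competition with GMP-derived cells and the lower number of LSK cells that a mixed graft may hold cannot be told apart.

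Bone marrow and spleen of the same mouse often differed for these clones, without a common direction for the large ones. GFP_Barcode_29850 was higher in spleen in 7 of 14 mice, with a mean spleen minus marrow difference of -0.10 ± 0.33 (SE, log2 scale, adjusted p = 0.835 by limma with the mouse as block). In NSG mouse 21 it held 27.1% of marrow and 8.22% of spleen reads. In NSG mouse 23 it held 27.8% of marrow and 48.9% of spleen reads, and in NSG mouse 9 it held 16.96% and 33.9%. The direction thus varied from mouse to mouse. The size of the difference, whatever its sign, averaged 0.597 on the log2 scale. It averaged 0.559 for GFP_Barcode_100907, 0.461 for GFP_Barcode_1859 and 0.442 for GFP_Barcode_7785. PCR duplicates were collapsed, so the spread between repeat libraries of 1 tissue was not measured.

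GFP_Barcode_100907 was higher in spleen in 10 of 14 mice, by 0.42 ± 0.30 (SE, log2 scale, adjusted p = 0.335 by limma). Its widest gap was in Ptprca mouse 20, at 3.62% of marrow and 12.1% of spleen reads. In NSG mouse 21 it held 9.65% and 19.8%, opposite in direction to GFP_Barcode_29850 in the same mouse. Ptprca mouse 20 showed the same opposition, with GFP_Barcode_29850 at 13.3% of marrow and 7.35% of spleen reads.

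GFP_Barcode_20873 was higher in spleen in 12 of 14 mice, the exceptions being Ptprca mouse 2 and NSG mouse 21. The difference was 0.80 ± 0.38 (SE, log2 scale), with an unadjusted p of 0.0565 and an adjusted p of 0.157 by limma, and so it did not pass. Its gaps were the widest of the 3 clones, with a mean size of 1.195 on the log2 scale. In Ptprca mouse 3 it held 0.0351% of marrow and 0.400% of spleen reads, and in NSG mouse 21 it held 2.74% and 0.754%.

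Over all 117 clones tested for tissue, 1 (0.855%) was called higher in spleen, GFP_Barcode_2255, and 22 (18.8%) higher in marrow, with a median of -0.73. The split was 1 and 1 after centring on the median clone, 2 and 0 with edgeR without TMM, and 5 and 0 with TMM. With TMM all 3 clones were among the 5 called higher in spleen, at log2 differences of 1.10, 1.61 and 1.99 for GFP_Barcode_29850, GFP_Barcode_100907 and GFP_Barcode_20873, so the direction for GFP_Barcode_29850 turned with the scaling.

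Whether the tissue difference itself differed between hosts was tested as an interaction. None of the 3 clones passed, with NSG minus Ptprca values of 0.12 ± 0.67 (SE) for GFP_Barcode_29850, -0.02 ± 0.60 for GFP_Barcode_100907 and -0.56 ± 0.77 for GFP_Barcode_20873 (adjusted p = 0.895, 0.970 and 0.585 by limma). These errors leave room for sizeable differences in either direction. Of the 117 clones, 13 (11.1%) were called toward NSG and 1 (0.855%) toward Ptprca, with a median of 1.49. The split was 0 and 1 after centring, 2 and 1 with edgeR without TMM and 0 and 1 with TMM.

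Which of the 2 large clones led varied between libraries. The ratio of GFP_Barcode_29850 to GFP_Barcode_100907 was above 1 in 6 of 8 NSG libraries and in 1 of 6 Ptprca libraries from recipients of LSK cells alone, with ranges of 0.646 to 1.88 and 0.527 to 1.49. In mixed recipients it was above 1 in 5 of 7 NSG libraries (0.415 to 3.39) and in 3 of 8 Ptprca libraries (0.486 to 3.68). The ratio was thus not fixed across libraries, and its ranges in the 2 hosts overlapped. Marrow and spleen of a mouse are separate libraries here, so these are not counts of mice. Values from recipients of LSK cells alone also chose the clones and are a description only. Together the 3 clones held 47.0% ± 4.57 (SD, n = 4) of LSK-library reads in NSG recipients of LSK cells alone and 19.03% ± 2.97 (SD, n = 3) in the Ptprca ones. In mixed recipients they held 38.4% ± 11.5 and 13.7% ± 3.91 (SD, n = 4 each).

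Likeness between clones was measured as the root mean square difference of log2(CPM + 10) values over the 15 mice, after each clone was centred on its own mean. By this measure the clone most like GFP_Barcode_29850 was GFP_Barcode_100907, at 0.650, followed by GFP_Barcode_7785 at 0.704, where the median over the LSK clones compared was 3.12. For GFP_Barcode_100907 the nearest were GFP_Barcode_29850 at 0.650 and GFP_Barcode_7785 at 0.669, against a median of 2.74. GFP_Barcode_20873 was nearest to GFP_Barcode_100907 at 1.203 and GFP_Barcode_29850 at 1.36, against a median of 3.17. The mice share their libraries among all clones, and the members were chosen for a common direction, so these distances are a description only. The clones named as nearest were all large, with means of 12.9% to 17.5% over the 15 mice. The distances were not adjusted for clone size, and how far they depend on it was not tested.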

How the data were processed

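Barcodes were amplified from genomic DNA and sequenced, per the labels, although the extraction protocol given there describes a single-cell droplet preparation. The deposited values are CPM, scaled by the authors to 1000000 per column after filtering barcodes and collapsing PCR duplicates of 96 sequencing libraries into 48 columns. How duplicates were combined is not given in the sources used here, nor are the filters, the barcode reference and the aligner settings. Bowtie 1.2.2 and R 3.6 were used per the submitters' processing notes. No column was left unmapped. The CPM values stood at whole-number steps, each read as 1 sequencing read, within 0.01 of a read in every case, giving 4257581 to 8499553 reads per column. In many of the columns few low values were available for this check.

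Values were rescaled to LSK-library reads and averaged over the tissues of a mouse. limma 3.58.1 (R 4.3.3, trend, two-sided) compared log2(CPM + 10) for clones with a mean of at least 100 CPM, with Benjamini-Hochberg adjustment over all clones tested and calls at an adjusted p under 0.05. Fold changes are on that log2 scale. Tissues were paired by animal, which the labels name, and the mouse was a block. The fits were checked on simulated independent normal values, without the fixed total of a library. For the tissue tests the simulated spread came from mouse-level shares and not from spleen minus marrow differences. The tissue fits were therefore not checked as run.

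The 3 clones, the comparisons and the rule for named clones were chosen with earlier results of these data known. The rule named the 3 clones, those next to the threshold that chose them, the 2 clones most like each, and GFP_Barcode_1859 and GFP_Barcode_7785 for side-by-side levels. GFP_Barcode_2255 and mCHERRY_2_Barcode_457303 were named after their values were seen. Alternatives were pseudocounts of 1 and 100 CPM, minima of 10 and 1000 CPM or none, eBayes without trend, centring on the median clone, edgeR 4.0.16 on recovered reads with and without TMM, each tissue alone, no block, and each mouse left out. Leaving out 3 libraries, those with at least 0.1% of GMP reads in an LSK recipient or at least 1% of reads in barcodes of no pool, was added after seeing the data.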

Additional observations from a re-analysis of the deposited data

Results flagged for a closer look

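In the mixed NSG recipients, mouse 23 lay far from the other mice for GFP_Barcode_29850, at 38.4% of LSK-library reads and 28.6% of LSK plus GMP reads. In the mixed Ptprca recipients, mouse 20 stood apart in bone marrow for the same clone, at 13.3%. The spleen minus marrow difference of GFP_Barcode_20873 in the mixed Ptprca recipients was 2.57 on the log2 scale in mouse 17, far from the other mice of that group. Dixon's test was applied to 36 sets of values, and chance alone marks about 1 in 20 such sets. The cause of these values was not tested.

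The 3 barcodes also appeared in mice that were given GMP cells only, which no comparison used. There GFP_Barcode_29850 was above 3 reads in 15 of 16 libraries and reached 0.121% of all reads (8905 reads) in the spleen of NSG mouse 13. GFP_Barcode_100907 was above 3 reads in 15 of 16 libraries and reached 0.0909% (6235 reads) in the spleen of NSG mouse 14. GFP_Barcode_20873 was above 3 reads in 7 of 16 libraries and reached 0.00609% (449 reads) in the spleen of NSG mouse 13. In the GMP pool the clones stood at 0.00107%, 0.000783% and, from 1 read, 2.06e-05%. Of the LSK-library reads in the spleen of NSG mouse 13, GFP_Barcode_29850 made up 26.1% and GFP_Barcode_100907 made up 17.9%. Such reads were not particular to the 3 clones. In the spleens of NSG mice 13 and 14, GFP_Barcode_1859 held 0.0579% and 0.117% of all reads. GFP_Barcode_7785 held 0.0867% and 0.109% there. The source of these reads was not tested.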

How the results depend on the processing

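Values are log2 differences with limma or edgeR adjusted p in parentheses, or counts of clones called. Changing the minimum, the tissue or the mice also changed the number of clones tested, so those counts have different totals. For the host difference in mixed recipients by LSK-library reads, GFP_Barcode_100907 missed the threshold with a pseudocount of 100 CPM (0.94, adjusted p = 0.0614), a minimum of 10 CPM (0.94, 0.0911), no minimum (0.94, 0.227), no trend (0.94, 0.300), edgeR without TMM (0.98, 0.0570), bone marrow alone (1.18, 0.106), spleen alone (0.93, 0.109) and without the 3 libraries that stood apart (1.07, 0.0550). GFP_Barcode_29850 missed it without trend (1.90, 0.0654). GFP_Barcode_20873 passed after centring (6.46, 0.000529) and with TMM (4.75, 0.0399), settings that also raised GFP_Barcode_29850 to 7.34 and 5.21 and GFP_Barcode_100907 to 6.39 and 4.03. By LSK plus GMP reads, GFP_Barcode_100907 missed without trend (1.47, 0.0833) and in spleen alone (1.37, 0.0603). GFP_Barcode_20873 passed by those reads after centring (5.72, 0.00333) and with TMM (3.97, 0.0332). By LSK-library reads, 60 of 112 clones were called as fitted, 19 of 112 after centring and 38 of 112 with TMM. The calls were 20 of 35 clones with a minimum of 1000 CPM and 20 of 55 in spleen alone. By LSK plus GMP reads, 67 of 128 clones were called as fitted and 35 of 128 after centring. The calls were 15 of 38 clones with a minimum of 1000 CPM, 42 of 1585 with none and 24 of 81 in spleen alone.

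With one mouse left out at a time, the host differences by LSK-library reads ranged from 1.64 to 2.16 for GFP_Barcode_29850, 0.76 to 1.24 for GFP_Barcode_100907 and 0.41 to 1.64 for GFP_Barcode_20873, with 53 to 60 calls. By LSK plus GMP reads they were 2.04 to 2.67, 1.30 to 1.80 and 0.83 to 2.09, with 45 to 61 calls. The parts in the LSK share ranged from 7.36 to 14.1, 4.64 to 6.95 and 0.198 to 0.561 points, where the lowest value of each came without NSG mouse 23, and without the 3 libraries they were 11.99, 5.65 and 0.412.

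For tissue, GFP_Barcode_29850 turned positive after centring (0.49), with TMM (1.10, adjusted p = 0.0335), without the 3 libraries (0.0093) and without mouse 21 (0.093). With TMM, GFP_Barcode_100907 (1.61, 0.00402) and GFP_Barcode_20873 (1.99, 0.0335) passed. Leaving out mice gave -0.22 to 0.093, 0.32 to 0.54 and 0.52 to 1.04, with 7 to 29 calls. The 23 calls became 4 with a pseudocount of 1 CPM, 9, 11 and 7 with minima of 10, 1000 and none, 2 after centring, 2 and 5 with edgeR without and with TMM, and 15 without the 3 libraries. Without the replicate block for the mouse they were 8, and the members stayed at -0.10, 0.42 and 0.80 without a call. For tissue by host, GFP_Barcode_29850 turned negative after centring (-1.11) and with TMM (-1.01), and GFP_Barcode_100907 positive without the 3 libraries (0.074). Leaving out mice gave -0.13 to 0.51, -0.17 to 0.21 and -1.05 to -0.0076. The 14 calls became 8, 7 and 5 with those minima, 1 after centring, 3 and 1 with edgeR, 7 without the replicate block, and 8 to 17 with a mouse left out.

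For the presence of GMP cells, GFP_Barcode_29850 turned positive after centring (0.28) and with TMM (0.063), and GFP_Barcode_100907 passed without mouse 22 (-0.72, adjusted p = 0.0425). Leaving out mice gave -0.39 to -0.14, -0.72 to -0.48 and -1.15 to -0.54, with 0 to 9 calls. The 7 calls became 4, 2 and 4 with those minima, 0 after centring (13 at an unadjusted p under 0.05), 3 and 2 with edgeR, 1 in each tissue alone and 3 without the 3 libraries. Where a cause of these changes is not given by fewer clones or samples, the cause was not tested. Counting intervals say nothing of how many molecules were sampled, so what depth limits is not known here.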
